A study of Solanum lycopersicum with 18 samples.

Results

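The 6 genes described here encode NAC transcription factors of tomato that are known from fruit ripening and stress responses: *NOR* (Solyc10g006880), *NOR-like1* (Solyc07g063420), *NAC4* (Solyc11g017470), *NAC1* (Solyc04g009440), *JA2* (Solyc12g013620) and *JA2L* (Solyc07g063410). They were chosen by identifier, and every line of the 9 deposited lists of m6A peaks whose overlapped gene was 1 of the 6 was taken. This gave 10 of 105726 lines, which belonged to *NOR* and *NAC1*. The other 4 genes had no peak in any list. Across the whole series, 11176 genes had a peak in at least 1 list and 8224 had a peak in all 9.

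The lists come from pericarp of *Solanum lycopersicum* cv. Ailsa Craig grown in a greenhouse. The wild type was sampled at 39 and at 42 days post-anthesis (DPA), which are the mature green and breaker stages, and the *Cnr* mutant at 42 DPA. *Cnr* (Colorless non-ripening) is an epimutant in which hypermethylated DNA upstream of an SBP-box gene goes with fruit that fail to ripen. Each group had 3 biological replicates, each a pool of fruits, and each replicate gave an antibody-enriched (IP) library and an input library of fragmented mRNA.

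N6-methyladenosine (m6A) is the most common internal mark of messenger RNA. It is written by a methyltransferase complex, removed by ALKBH-type demethylases and read by YTH-domain proteins, and it can alter the stability and translation of a transcript. In plants it lies mostly near the stop codon and in the 3′ untranslated region (UTR). NAC proteins share an N-terminal DNA-binding domain and differ in their C-terminal regulatory part. NOR is a regulator that promotes tomato ripening, and NOR-like1 is a close relative that promotes ripening as well. NAC1 and NAC4 have been linked to ethylene and carotenoid formation in fruit and to stress. JA2 and JA2L act in the leaf, where JA2 activates the abscisic acid gene *NCED1* and JA2L activates salicylic acid methyltransferase genes such as *SAMT1*.

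The enrichment used here is the fold enrichment of a peak summit as deposited. It divides the IP fragments over the summit by the background, after 1 was added to each. The background is the local input level, unless a floor set by the whole genome is higher. The p-value and the ratio together give back both numbers, and the IP number obtained in this way was whole to within 0.1 at 99.9% of 92197 summits. The floor was between 44.6 and 51.1 fragments in the 9 libraries, and it grows with library depth, so that numbers are also given as multiples of it. The read totals of the libraries were not used here. *Cnr* replicate 2 stood apart from the other *Cnr* replicates, with a median fold enrichment of 5.78 against 7.15 and 7.67, while the 6 wild-type lists lay between 5.02 and 5.64. For *NOR*, *NAC1*, *JUB1*, *NCED1* and the ripening genes called in *Cnr*, what the *Cnr* lists show is given with and without it.

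*NOR* carried a single peak, and the lists with it differed by group. All 3 wild-type lists at 39 DPA, all 3 at 42 DPA and 1 of the 3 *Cnr* lists had the peak. The *Cnr* list with the peak was that of replicate 2, so that without this library 0 of 2 *Cnr* lists had it. With only summits of at least 2-fold enrichment and a −log10 q of at least 10, the peak remained in 2 lists at 39 DPA, in 1 wild-type list at 42 DPA and in 1 *Cnr* list, so that the wild type and *Cnr* at 42 DPA no longer differed in number. Of 8921 regions with a peak in all 3 wild-type lists at 42 DPA, 7.6% had a peak in at most 1 *Cnr* list. The pattern of *NOR* itself, all 6 wild-type lists and 1 *Cnr* list, was found in 302 of the 8533 regions with a peak in all 6 wild-type lists.

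**Figure D1:**
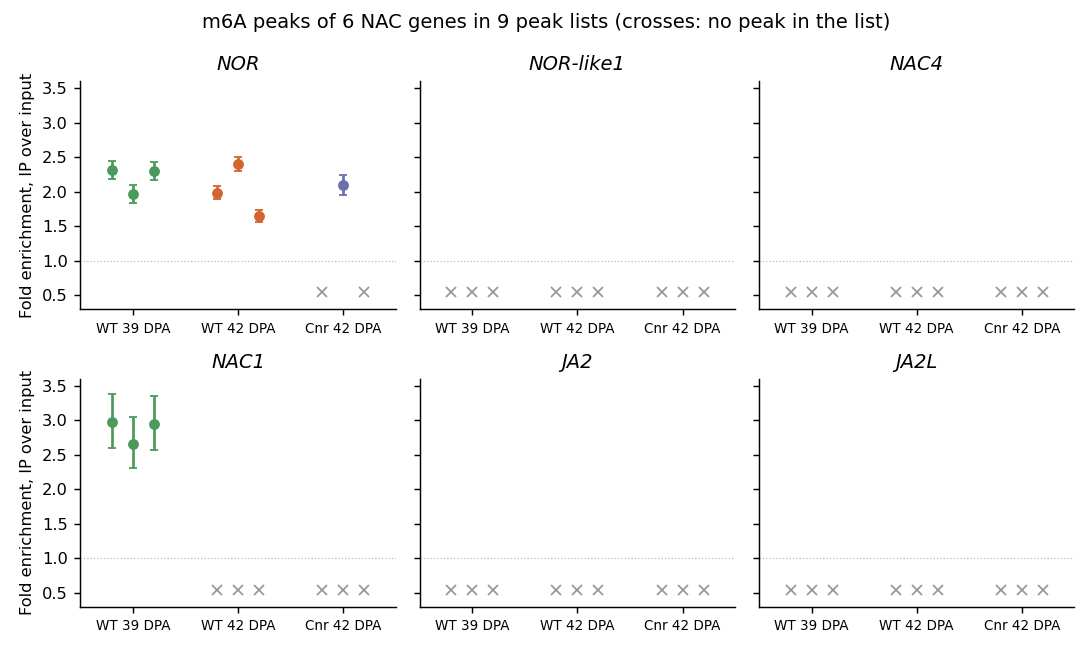
Fold enrichment of IP over input at the peak of each of the 6 genes in each peak list, with replicates 1 to 3 from left to right in each group. Bars are 95% exact Poisson intervals of the IP number, grey crosses mark lists with no peak and have no value, and only *NOR* (7 lists) and *NAC1* (3 lists) have points.

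The *NOR* peak lay in the gene's last exon. The gene spans positions 1298978 to 1301926 of chromosome 10 in SL3.0, on the minus strand, and the peaks together spanned 1299313 to 1299656 as deposited. The part shared by all 7 lists was 1299377 to 1299626. All 3 positions annotated for a peak, its first base, centre and last base, were labelled last exon in the 7 lists, and none reached an annotated UTR. The summits fell within 17 bases of each other, between 482 and 499 bases inside the annotated 3′ end of the gene. The peak was 310 to 340 bases wide in the wild type and 249 bases wide in *Cnr* replicate 2. The place of the peak was thus nearly the same in every list that had it, and no other gene was annotated to it.

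At 39 DPA the fold enrichment of *NOR* was 2.31, 1.96 and 2.29 in replicates 1, 2 and 3. At 42 DPA it was 1.98, 2.40 and 1.64 in the wild type. *Cnr* replicate 2 had 2.09. The wild-type groups overlapped, and the *Cnr* value lay within the range of both. The mean was 2.19 ± 0.196 (SD, n = 3) for the earlier stage. For the later stage it was 2.01 ± 0.377 (SD, n = 3).

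The change of *NOR* enrichment between the wild-type stages was not larger than the replicate spread. The log2 fold change at 39 DPA relative to 42 DPA was 0.14 ± 0.14 (SE), with an adjusted p of 0.575 from limma over 8550 regions, and an exact two-sided permutation test on the log2 values gave p = 0.7. The median change over all tested regions was 0.05, and 56.7% of the regions had a change at least as large in size as that of *NOR*. In this comparison 3.01% of the regions were called higher at 39 DPA and 1.54% lower, at a change of 1.5-fold or more and an unadjusted p under 0.05, and *NOR* was not among them. All regions of this fit had the same SE of 0.139, because limma took 1 common spread for them, while the SE from the *NOR* replicates alone was 0.175. No test of *NOR* in *Cnr* against wild type was made on the deposited values, since 2 *Cnr* lists had no value.

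The counting error of the *NOR* values was as follows. In the wild type at 42 DPA the 95% exact Poisson intervals of the fold enrichment were 1.89 to 2.08 in replicate 1, 2.30 to 2.50 in replicate 2 and 1.56 to 1.73 in replicate 3. These intervals do not overlap. At 39 DPA they were 2.18 to 2.45, 1.84 to 2.09 and 2.16 to 2.43, where those of replicates 1 and 3 overlapped and that of replicate 2 lay below both. The intervals cover counting of IP fragments only, and the replicates are separate pools of fruits.

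While the ratio showed no change beyond the replicate spread, both of its parts were higher at 42 DPA. The background of the *NOR* peak was 10.1, 9.50 and 10.1 times the floor in replicates 1, 2 and 3 at 39 DPA. It was 17.8, 18.4 and 17.7 times the floor in the wild type at 42 DPA. *Cnr* replicate 2 had 9.11 times the floor. The 42 DPA wild-type values were all above those at 39 DPA, by 1.82-fold on the means of the log2 values, and the *Cnr* value was below every wild-type value. The exact two-sided permutation test of the wild-type stages gave p = 0.1, the smallest p that 3 against 3 replicates allow.

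The IP fragments at the *NOR* summit numbered 1186, 954 and 1148 at 39 DPA in replicates 1, 2 and 3. They numbered 1732, 2102 and 1480 in the wild type at 42 DPA, and 857 in *Cnr* replicate 2. As multiples of the floor the wild-type means were 21.7 ± 2.65 (SD, n = 3) and 36.2 ± 7.57 (SD, n = 3), which is 1.65-fold on the means of the log2 values. The groups did not overlap, with p = 0.1 in the exact permutation test, the smallest possible. The *Cnr* value was 19.1 times the floor, which lay inside the range of the wild type at 39 DPA and below that at 42 DPA.

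The rise of the *NOR* background was large among the regions measured in the same way. Of the 4510 regions with a peak in all 6 wild-type lists and a background above the floor in each, 164, or 3.64%, had a background change at least as large. The median change of these regions on the log2 scale was −0.03. For the IP fragments, 2.77% of the regions had a rise at least as large as *NOR*. Lack of overlap alone was common, with all 42 DPA values above all 39 DPA values in 38.8% of these regions for the background and 15.1% for the IP fragments. Input fragments under a peak come from the RNA present, but the background takes the highest of several windows around the summit and is not a measurement of transcript level. In bulk pericarp, more RNA per cell and more cells with the RNA cannot be told apart.

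**Figure D2:**
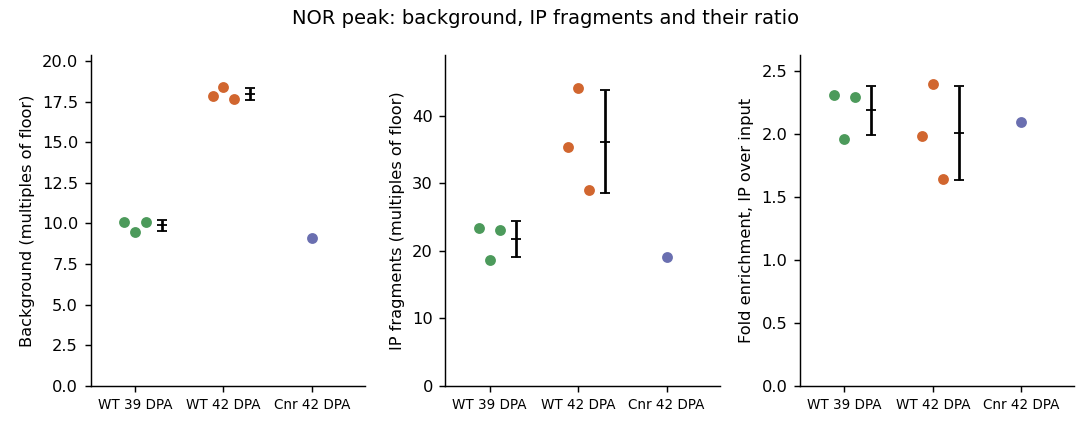
Background and IP fragments at the *NOR* summit in multiples of the library's floor, and the fold enrichment made from them, for each list with the peak (points) with the mean ± SD of the wild-type groups (black). The background rises from 9.50 to 10.1 at 39 DPA to 17.7 to 18.4 at 42 DPA, while the fold enrichment overlaps between the stages, and *Cnr* has 1 point because only replicate 2 had the peak.

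Relative to other regions, *NOR* had little enrichment on much background. For the tests, peaks were merged over the 6 lists of a comparison, which gave 8550 regions with a peak in all 6 wild-type lists. Merging over all 9 lists, used for the counts of lists, gave 8533. The mean log2 fold enrichment of *NOR* at 42 DPA was at or above that of 2.75% of the 8550 regions, itself included, where the median corresponded to 6.10-fold. Its background in multiples of the floor was exceeded or reached by 0.982% of the regions, itself included. At 39 DPA the corresponding shares were 3.73% and 2.94%. The *NOR* peak was nevertheless far from the limit of detection in the lists that had it, with a −log10 q between 67.0 and 266.

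**Figure D3:**
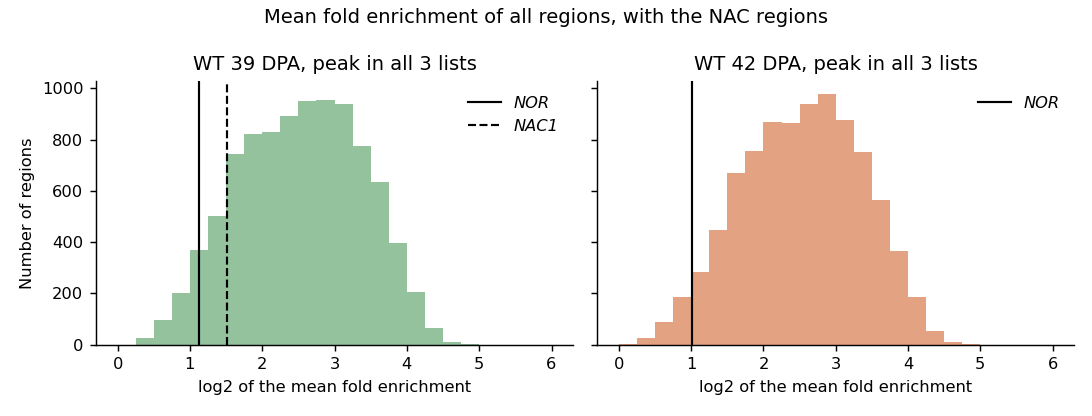
Number of regions by the log2 of their mean fold enrichment, for regions with a peak in all 3 wild-type lists at 39 DPA (left) and at 42 DPA (right). The lines mark *NOR* (mean 2.19 at 39 DPA and 2.01 at 42 DPA) and *NAC1* (mean 2.85 at 39 DPA), which lie in the lower tail of the distribution.

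A missing *NOR* peak sets an upper limit on the enrichment over the background rather than a value. Where the local input is below the floor, the ratio of IP to local input is not limited in this way. At the lowest −log10 p found in their lists, *Cnr* replicates 1 and 3 needed 1.53-fold and 1.56-fold enrichment where the background was on the floor. At the background multiple of *Cnr* replicate 2 they needed 1.17-fold and 1.18-fold. The 6 wild-type values of *NOR* and that of *Cnr* replicate 2 were all above these limits. The limits follow from the p-value alone, and a minimum peak length in the caller was not modelled. How much of the missing peak lies in the IP and how much in the input was not tested, since the lists hold neither where no peak was called.

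Peaks placed like that of *NOR* were scarce in the same *Cnr* libraries. Of the 71 regions whose peak was annotated as last exon throughout in all 3 wild-type lists at 42 DPA, 19 had no peak in any *Cnr* list, 30 had 1, 6 had 2 and 16 had 3. Among all regions with a peak in these 3 wild-type lists, 89.8% had a peak in 3 *Cnr* lists, against 22.5% of the 71. In all 30 regions with a single *Cnr* list, *NOR* included, that list was replicate 2. This was common for peaks of any placement. Of 366 regions with a peak in all 3 wild-type lists at 42 DPA and in a single *Cnr* list, 321, or 87.7%, had it in replicate 2. The lists of *Cnr* replicates 1 and 3 held 43 and 41 peaks wholly in a last exon, whereas *Cnr* replicate 2 held 128 and the wild-type lists held 107 to 167.

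The enrichment of *NOR* was also that of regions that are often missed in *Cnr*. In the wild type at 42 DPA the median of the mean fold enrichment was 1.92 for the 30 last-exon regions with 1 *Cnr* list and 2.84 for the 16 with 3. *NOR*, with 2.01, was at or above 20 of the 30, itself included, and below all of the 16. The absence of the *NOR* peak from 2 *Cnr* lists thus moved with a loss of such peaks across these libraries, and its part in the result for *NOR* was not tested.

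**Figure D4:**
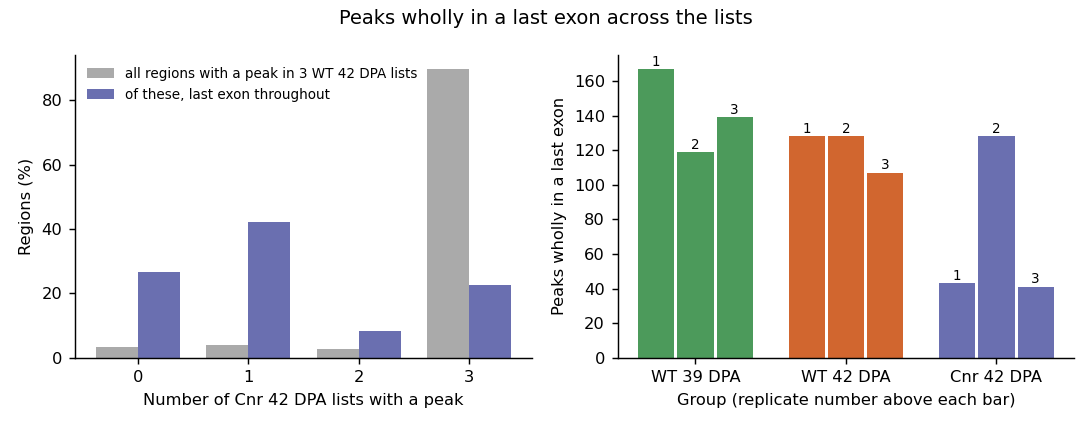
Left, the percentage of regions found in 0 to 3 *Cnr* lists, for all 8921 regions with a peak in the 3 wild-type lists at 42 DPA (grey) and for the 71 of them placed wholly in a last exon (blue). Right, the number of peaks wholly in a last exon in each list, where *Cnr* replicates 1 and 3 hold 43 and 41 and the other 7 lists hold 107 or more.

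*NAC1* had a peak at 39 DPA only. All 3 wild-type lists at 39 DPA had it, 0 of 3 wild-type lists at 42 DPA and 0 of 3 *Cnr* lists. Of 9414 regions with a peak in all 3 lists at 39 DPA, 3.6% had none in the wild type at 42 DPA. There were 133 regions, or 1.41% of the 9414, with the full pattern of *NAC1*. Leaving out *Cnr* replicate 2 does not alter this pattern, as none of the *Cnr* lists had the peak.

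The *NAC1* peak lay at the other end of the transcript from that of *NOR*. The gene spans 2856615 to 2858592 of chromosome 4 in SL3.0 on the plus strand, and the peaks together spanned 2856634 to 2856852. The beginning and centre were annotated as 5′ UTR and the end as exon 1 in all 3 lists. The summits were 135 to 139 bases from the annotated start of the gene and within 4 bases of each other. The same peak was also annotated to Solyc04g009435, which spans 2854903 to 2862162 on the same strand and has *NAC1* within its bounds. That gene had no other peak. Which of these transcripts carried the peak cannot be told apart.

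The fold enrichment of the *NAC1* peak was 2.97, 2.65 and 2.94 in replicates 1, 2 and 3 at 39 DPA, with a mean of 2.85 ± 0.173 (SD, n = 3). The IP fragments at the summit numbered 221, 201 and 222. The background was 73.8, 75.1 and 74.9 fragments, or 1.46, 1.47 and 1.51 times the floor. The replicates were close to each other, and the 95% exact Poisson intervals of the fold enrichment, between 2.30 and 3.38 over the 3, overlapped. The background stood little above the floor, unlike that of *NOR*.

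Wild-type lists at 42 DPA would have needed 1.52-fold to 1.54-fold enrichment for a peak on the floor by their lowest −log10 p, and the *Cnr* lists 1.53-fold to 1.56-fold. At the background multiple of *NAC1* at 39 DPA the wild-type lists at 42 DPA needed 1.43-fold to 1.44-fold. All 3 values at 39 DPA were above these limits. Whether the transcript was less abundant at 42 DPA or less enriched cannot be told apart from the peak lists.

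Peaks placed like that of *NAC1* were few. Of 94 regions that began in a 5′ UTR in all 3 lists at 39 DPA, 5 had no peak in the wild type at 42 DPA and 76, or 80.9%, had a peak in all 3 lists there, beside 90.6% of all regions with a peak in the 3 lists at 39 DPA. In *Cnr*, 16 of the 94 had no peak in any list, 33 had a peak in 1 list, 1 had it in 2 and 44, or 46.8%, had it in 3. The *Cnr* share for all regions with a peak in the 3 lists at 39 DPA was not computed here. The 46.8% is therefore not read as particular to these regions. The lists of *Cnr* replicates 1 and 3 held 67 and 55 peaks that began in a 5′ UTR, whereas *Cnr* replicate 2 held 116 and the wild-type lists held 103 to 190. The part of these differences between libraries in the result for *NAC1* was not tested. The regions that were absent at 42 DPA in the wild type had a median enrichment of 2.92 at 39 DPA, against 6.38 for those present in all 3 lists. *NAC1* had 2.85, and 45.4% of the absent regions were at or below it.

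*NOR-like1*, the close relative of *NOR*, had no peak in any of the 9 lists. *JA2*, *JA2L* and *NAC4* had none either. *NOR-like1*, *JA2* and *JA2L* were named in no column of any list, and their positions are therefore not given here. *NAC4* was named as the gene with the nearest start to a peak of Solyc11g017460, which was called in all 9 lists. That peak ended 1548 to 1620 bases from the 3′ end of *NAC4*, which spans 8425209 to 8426742 of chromosome 11 on the minus strand, and it does not overlap the gene.

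The nearest identifiers with a peak on either side of these genes were looked up. Identifiers without a peak were passed over, so that having a peak was fixed by this choice. For *NOR-like1* and *JA2L*, whose identifiers are consecutive, the nearest identifiers with a peak were Solyc07g063390 and Solyc07g063430, both in all 9 lists. For *JA2* they were Solyc12g013580 with 7 lists and Solyc12g013750 with 9. For *NAC4* they were Solyc11g017460 with 9 lists and Solyc11g018500 with 1. Of the identifiers found in this way for *NOR*, Solyc10g006890 had a peak in all 9 lists, which includes the *Cnr* replicates that lacked the *NOR* peak. Solyc10g006860, on the other side, had a peak in 6 lists and in neither of these *Cnr* replicates. Absence from a list says only that no peak passed the threshold. By the lowest −log10 p of each list, a summit on the floor passed at 1.51-fold to 1.56-fold enrichment in the 9 lists, with 70 to 78 IP fragments. A transcript with fewer fragments than this could not have given a peak, and the abundance of the 4 transcripts is not in the lists.

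Of 7 other NAC genes examined (*NAP1*, *NAP2*, *ORE1S02*, *ORE1S03*, *ORE1S06*, *GOBLET* and *JUB1*, which act in leaf ageing, organ boundaries and stress), 2 had a peak in at least 1 list. The share of all annotated genes with a peak was not computed here, so this count is not read against it. *NAP1*, a promoter of leaf senescence, had one in 1 list at 39 DPA. *JUB1* had a peak at the 3′ end in all 9 lists. In the wild type its mean fold enrichment was 17.6 ± 2.86 (SD, n = 3) at 39 DPA. The mean at 42 DPA was 19.2 ± 1.44 (SD, n = 3) in the wild type. *Cnr* fruit had a mean of 16.6 ± 3.58 (SD, n = 3). These means lie far above those of *NOR*, and the groups overlapped. Its log2 fold change was −0.13 at 39 DPA and −0.23 in *Cnr*, each relative to wild type at 42 DPA, with adjusted p of 0.583 and 0.257 from limma. It was called in neither comparison, nor without *Cnr* replicate 2, where the change in *Cnr* was −0.05.

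Of 21 ripening genes and downstream targets examined, 9 had a peak in at least 1 list and 6 in all 9. These counts, too, are not read against the share of all annotated genes with a peak. Most of the structural genes had none, among them the ethylene genes *ACS2*, *ACS4* and *ACO1*, the cell wall genes *PL*, *CEL2* and *EXP1* and the carotenoid genes *PSY1* and *GGPPS2*. Lack of a peak was not limited to structural genes, as *CNR*, the SBP-box gene, and *AP2a* had none either. The cell wall gene *PG2a* had a peak in 1 wild-type list at 42 DPA. *SAMT1*, the target of JA2L, had none. *NCED1*, the target of JA2, had a peak in all 9 lists that was annotated as last exon at its centre and end. Its beginning was labelled intergenic, so that it was not placed like the *NOR* peak. Wild-type fruit at 39 DPA had a mean fold enrichment of 1.65 ± 0.127 (SD, n = 3) at the *NCED1* peak. Wild-type fruit at 42 DPA had 1.72 ± 0.112 (SD, n = 3), and *Cnr* fruit had 1.54 ± 0.140 (SD, n = 3). The *NCED1* peak was called in neither comparison, and its log2 fold change in *Cnr* was −0.16 with all libraries and −0.23 without *Cnr* replicate 2. Both wild-type means were below those of the *NOR* peak, and the *NCED1* peak was present in all 3 *Cnr* lists.

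At 39 against 42 DPA in the wild type, 6 of the 21 genes had 10 regions with a peak in all 6 lists. None was called by limma. An unadjusted p under 0.05 was found for 3 of the 10 regions, in *FUL1*, *NR* and *SlDML2*, all higher at 39 DPA. Their adjusted p from limma was 0.073, 0.075 and 0.076. The share of all 8550 regions with an unadjusted p under 0.05 was not computed here, so this count is not read against it. The median log2 change of the 10 regions was 0.12, beside 0.05 for all 8550.

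In *Cnr* against wild type at 42 DPA, 7 of the 21 genes had 8 regions with a peak in all 6 lists, and *NOR* and *NAC1* had none. The comparison shares its wild-type lists at 42 DPA with that of the stages. A region that lacked a peak in any *Cnr* list was not tested and could not be called lower. Among these were regions of *SlDML2* with means of 1.73, 2.42 and 1.84 in the wild type at 42 DPA. Of the 8 regions tested, none was called lower. Enrichment rose in a region of 3 of the 7 genes, *FUL2*, *NR* and *SlDML2*, which encode a MADS-box factor, an ethylene receptor and a DNA demethylase. Their log2 fold changes were 0.74, 1.52 and 1.22, with adjusted p of 0.000133, 2.79e-16 and 9.86e-11 from limma. Of all 8007 regions, 25.2% were called higher in *Cnr* and 1.91% lower. The median log2 change was 0.41 over the 8 regions and 0.36 over all regions, so that the *Cnr* lists as a whole had the higher enrichment. Without *Cnr* replicate 2 the 3 changes were 0.77, 1.66 and 1.38, all 3 kept their call, and a region of *TAGL1* that had 0.53 with all libraries was called higher at 0.66. With each library centred on its median, *NR* and *SlDML2* kept their call with log2 fold changes of 1.14 and 0.83, *FUL2* with 0.35 was no longer called, and *JUB1* with −0.62 and another region of *TAGL1* with −0.72 were called lower.

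**Figure D5:**
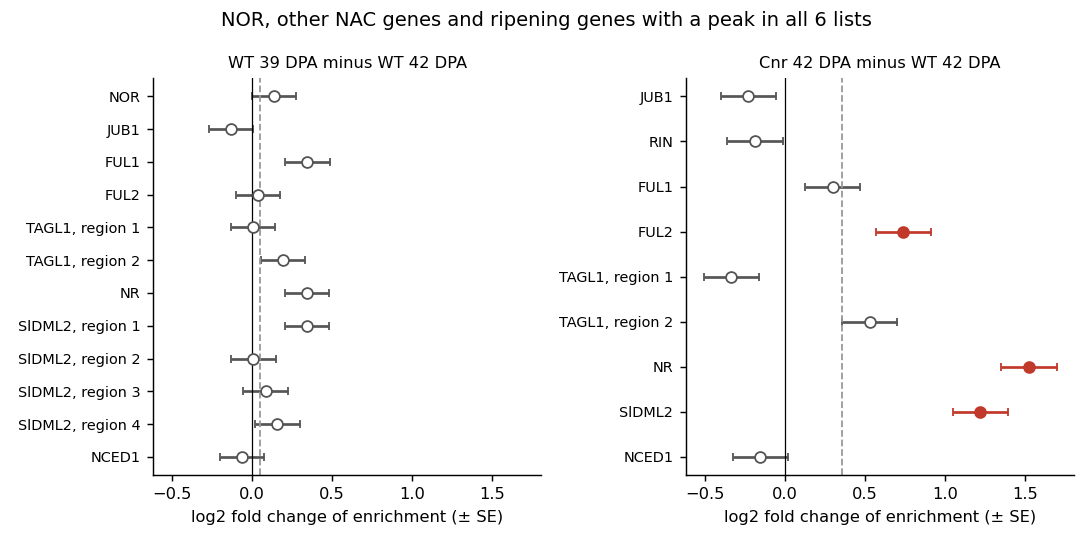
Log2 fold change of enrichment (± SE from limma) for *NOR*, *JUB1* and the ripening genes with a peak in all 6 lists of a comparison, at 39 against 42 DPA in the wild type (left) and in *Cnr* against wild type at 42 DPA (right). Filled red points were called, the dashed line is the median of all tested regions (0.05 and 0.36), and *NOR* appears on the left only because 2 *Cnr* lists lack its peak.

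Between the members with peaks, *NOR* and *NAC1* shared little. The *NOR* peak was in the last exon, had a background near 10 or 18 times the floor and was kept between the wild-type stages. The *NAC1* peak was in the 5′ UTR, had a background near the floor and was found at 1 stage. Neither had a peak in all 9 lists, and regions with a like course of enrichment were therefore not sought.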

How the data were processed

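Each of 9 IP libraries was processed by the authors against its own input library (18 libraries in all). Per the labels and the study's methods, reads were checked with FastQC 0.11.7, trimmed with cutadapt 1.16 and Trimmomatic 0.30, and aligned to SL3.0 with BWA, and peaks were called with MACS in each replicate separately and annotated with PeakAnnotator on ITAG gene models. The deposited fold enrichment is a ratio made by the authors with MACS. The deposited −log10 p-value and −log10 q-value come from a Poisson model in MACS, run by the authors, and the deposited peak score was not used further. A peak under the caller's false discovery limit is not in a list, so a missing peak is not a value of 0.

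Peaks that shared at least 1 base were merged into regions, and the highest fold enrichment per library was used. Regions with a peak in all 6 lists of a comparison were tested on log2 fold enrichment, computed here from the deposited ratio, with limma 3.58.1 in R 4.3.3, without a replicate block, and called at a change of 1.5-fold or more with an unadjusted p under 0.05. Adjustment was by Benjamini-Hochberg over all regions. The SE was the same for all regions of a fit, 0.139 and 0.173, so that all 389 and 2167 regions past the fold limit were called. Single values were compared with exact permutation tests in Python 3.11.15 (numpy 2.4.6, scipy 1.17.1). The recovery of IP numbers and the fits were tested on simulated data. The simulated regions all had 1 common spread, so that this cannot check the SE shared by all regions. The median IP number per summit was 392 to 500.0 fragments by list.

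Deviations from the group means in same-numbered replicates of *Cnr* and wild type at 42 DPA had Pearson's r of 0.18, 0.44 and 0.34 across regions. Differently numbered pairs had r from −0.41 to 0.23. *Cnr* replicate 1 had 0.19 with wild-type replicate 3, so that its own number did not stand out. Nothing in the labels states a shared origin. The genes named are all 6 members, a list of 7 other NAC genes and a list of 21 ripening genes and targets written by hand. Of the 21, the called ones and a few others are named. *ACS2*, *ACS4*, *ACO1*, *PL*, *CEL2*, *EXP1*, *PG2a*, *PSY1*, *GGPPS2*, *CNR*, *AP2a*, Solyc11g017460 and the flanking identifiers were picked for mention after their values were seen. The members and lists were chosen with earlier results of these data known. Sequences and motifs were not analysed here.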

Additional observations from a re-analysis of the deposited data

How the results depend on the processing

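The *NOR* log2 fold change between wild-type stages was not called in any of the 12 alternatives that gave a value. It was 0.14 with the replicate block, 0.08 with median centring and 0.00093 to 0.27 when a replicate was left out, the lowest without replicate 3 and the highest without replicate 2 of the wild type at 42 DPA. With at least 2-fold enrichment and a −log10 q of at least 10, *NOR* kept a peak in 2 lists at 39 DPA, 1 list at 42 DPA in the wild type and 1 *Cnr* list, and *NAC1* in 3, so this setting and the fit on all 9 lists gave no *NOR* change. Missing peaks imputed as 1 fix the direction for *NAC1* between the stages and for *NOR* in *Cnr*, and no value or test of these is given. The rise of the *NOR* background was 0.83 to 0.88 on the log2 scale when a replicate was left out and 0.82 in unscaled fragments. That of the IP fragments was 0.57 to 0.87 and 0.68. These alternatives for background and IP were chosen after seeing the data. Regions called between wild-type stages numbered 389, 1172 with missing peaks as 1, 1313 at an adjusted p under 0.05 without a fold limit, and 372 to 491 without 1 replicate. In *Cnr* they numbered 2167, 3754, 4044, and 1666 to 3112 without 1 replicate, and 1069 with median centring. Median centring changed the split of higher and lower calls from 257 and 132 to 178 and 182 between stages, and from 2014 and 153 to 434 and 635 in *Cnr*. The replicate block left 389 and 2167 calls and changed no call named here. Same-numbered wild-type replicates had Pearson's r of 0.23, 0.34 and 0.08 across regions and are not taken as pairs. Differently numbered wild-type pairs had r from −0.36 to 0.17. The depth behind *NAC1* was 201 to 222 IP fragments and that behind *NOR* 857 to 2102.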

Other observations

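The peak nearest to *NAC4*, in the last exon and 3′ UTR of Solyc11g017460, was among those that changed, and it is given here because it was the only trace of *NAC4* in the lists. Wild-type fruit had a fold enrichment of 5.28 ± 0.576 (SD, n = 3) there at 39 DPA. At 42 DPA the wild type had 3.41 ± 0.496 (SD, n = 3), and *Cnr* fruit had 12.5 ± 1.93 (SD, n = 3). The log2 fold changes were 0.64 and 1.87 relative to wild type at 42 DPA, with limma adjusted p of 0.000141 and 3.67e-24, beside medians of 0.05 and 0.36 over all regions. Without *Cnr* replicate 2 the change in *Cnr* was 2.01. The background also differed between the groups. It was 1.38 times the floor in each list at 39 DPA and 2.15 times in each wild-type list at 42 DPA. In *Cnr* replicates 1, 2 and 3 it was 1.57, 1.67 and 1.57 times the floor. How much of these changes lies in the IP and how much in the input was not tested. The region was chosen after its values were seen.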
